A study of Mus musculus with 8 samples.

Results

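The genes described here are those whose change with a short hairpin RNA against Thbs2, the gene of the secreted matrix glycoprotein thrombospondin-2, pointed in opposite directions under 2 viral vectors in mouse liver. All 8 libraries were joined on the Ensembl identifier, and the 10245 genes with a mean of at least 1 FPKM (read fragments per kilobase of transcript, relative to all mapped fragments) in each of the 2 deposited tables were compared. An effect is the mean log2(FPKM + 1) with the hairpin minus that of the control of the same table, after each library was centred on its median, and the difference of effects is the αSMA effect minus the CMV effect. Effects of opposite sign were found for 4269 of the 10245 genes (41.7%), while 3100 (30.3%) were higher in both tables and 2876 (28.1%) lower in both, and for 1201 of the 4269 the difference of effects also passed an adjusted p of 0.05 in limma. Sign and difference come from the same values, so the counts of opposing genes describe these libraries and support nothing by themselves.

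The study delivered the hairpin in an adeno-associated virus of serotype 6, and the groups are named for the vector. The groups AAV6-CMV-NC (control replicates 1 and 2) and AAV6-CMV-shThbs2 (replicates 1 and 2) form the CMV table, and AAV6-αSMA-NC (control replicates 3 and 4) and AAV6-αSMA-shThbs2 (replicates 3 and 4) form the αSMA table. All 8 livers therefore received a vector of this serotype, as far as the labels go, and the labels give no strain, age, sex or injury. CMV is a promoter of cytomegalovirus that works in most cell types, while the promoter of smooth muscle actin (αSMA) is used for activated hepatic stellate cells, the collagen-making cells of liver scar, and for other contractile cells. Each table was sequenced by its own provider on its own platform (HiSeq2500 for CMV, DNBSEQ-T7 for αSMA) with its own controls, so vector, platform, provider and control mice cannot be told apart in any difference between the tables. With 2 libraries per group, and mice named only in the series text, the p-values measure the spread between these libraries. Levels were not tested between tables, which were normalised separately, and the depth behind the FPKM values is unknown, so no counting interval is given.

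Most liver RNA comes from hepatocytes, which make the plasma proteins, the enzymes of fat, sugar and cholesterol metabolism and those that clear foreign compounds. Within several of these programmes, the genes can change together in a living liver. The acute phase response to cytokines raises serum amyloid A and fibrinogen, the heat shock response raises chaperones when proteins misfold, pulses of growth hormone set male and female patterns of enzymes, and feeding or fasting shifts fat and sugar synthesis. In bulk tissue, fewer cells of a type and less RNA per cell cannot be told apart.

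Thbs2 itself did not oppose in FPKM. It measured 1.27 and 0.922 FPKM in the CMV controls and 0.695 and 0.614 with the CMV hairpin, against 1.37 and 1.47 in the αSMA controls and 0.850 and 1.14 with the αSMA hairpin, so both hairpin groups lay below their controls. It lay under the filter and was fitted without one, over 15587 genes. Its effects on the centred log2 scale were -0.33 with CMV (adjusted p = 0.533) and -0.02 with αSMA (adjusted p = 0.929), and they differed by 0.31 ± 0.18 (SE; adjusted p = 0.233). An exact permutation test within tables, two-sided, gave p = 0.222, where the smallest p that its 36 assignments allow is 0.0556. Of the 8 fibrosis reference genes, 7 passed the filter, and none of these 7 opposed. Col1a1, a chain of fibrillar collagen I, had effects of -0.54 with CMV and -0.71 with αSMA, and Acta2, which encodes smooth muscle actin, had effects of -0.94 with CMV and -0.60 with αSMA. Tgfb1, a main fibrogenic cytokine, had the same sign in both tables and was the only one of the 7 whose effects differed past the threshold, at -0.78 ± 0.18 (SE; adjusted p = 0.0202). Timp1 lay under the filter.

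The libraries of a group correlated with r from 0.980 to 0.989 across genes, which are not independent replicates. Summed hepatocyte markers were the largest of the marker sums in every library. They were 67331 and 66854 FPKM in the CMV controls and 52127 and 48459 with the CMV hairpin. In the αSMA table they were 46219 and 36282 FPKM in the controls and 41669 and 36379 with the hairpin. The CMV groups did not overlap, and the αSMA groups did. The FPKM sum per library stayed between 491931 and 514641 in the CMV table, and it was 941530 and 924060 in the αSMA controls against 1253740 and 1225210 with the αSMA hairpin. Transcripts of the mitochondrial genome took 11.6% of the sum in both αSMA controls, 22.7% and 24.3% with the αSMA hairpin, and 13.3% to 15.8% in the CMV libraries. The effect of this composition on the opposing genes was examined by other scalings, given in the closing section, and its cause was not tested. Erythroid transcripts summed to 2977 FPKM in CMV control 1 and 460.5 in CMV control 2. Marker sums for monocytes, neutrophils and scar macrophages were 886 and 1068 FPKM in the αSMA controls and 492 and 653 with the hairpin, and those for bile duct cells were 1866 and 1940 FPKM against 894 and 919. The part of these marker sums in the opposing genes was not tested.

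Genes opposed in both directions. Before any test, 2076 of all tested genes (20.3%) were higher with CMV and lower with αSMA, and 2193 (21.4%) were the reverse. The counts of the gene lists below are to be read beside these shares and those past the threshold. Of all tested genes, 514 (5.02%) were higher with the CMV hairpin and lower with the αSMA hairpin with a difference past the threshold, and 687 (6.71%) were lower with CMV and higher with αSMA. In all 2189 genes (21.4%) differed between tables past the threshold, 1266 (12.4%) with a difference above 0 and 923 (9.01%) below 0, and 988 of them (9.64%) had the same sign in both. The opposition was carried mostly by the αSMA side: of the 1201 opposing genes, 1103 passed an adjusted p of 0.05 for the αSMA effect alone, against 45.9% of all genes (54.3% at an unadjusted p under 0.05), and none passed for the CMV effect alone. Only 2 genes of all 10245 (0.0195%) passed for the CMV effect in limma. At an unadjusted p under 0.05 there were 1014 (9.9%), of which 216 were among the 1201. The size of the αSMA effect was the larger in 1091 of the 1201, and the CMV effect was smaller than its SE in 568. In limma the spread of a gene was shared by the libraries of both tables, so both its effects have the same SE. The counts for the CMV effect therefore rest on the spread of the αSMA libraries as well. The median size was 0.18 for the CMV effect and 0.82 for the αSMA effect, on the log2 scale, beside 0.14 and 0.42 over all tested genes. The 1201 were chosen by the difference of these same effects. Their larger αSMA effects and αSMA share past the threshold, beside all genes, therefore follow in part from that choice. No gene had opposite signs with both effects past an adjusted p of 0.05. At an unadjusted p under 0.05 for each effect, 159 genes (1.55%) did. The 1201 became 799 without CMV control 1, 601 and 396 without CMV shThbs2 replicates 1 and 2, 662 and 404 without αSMA controls 3 and 4, and 770 without αSMA shThbs2 replicate 3.

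**Figure D1:**
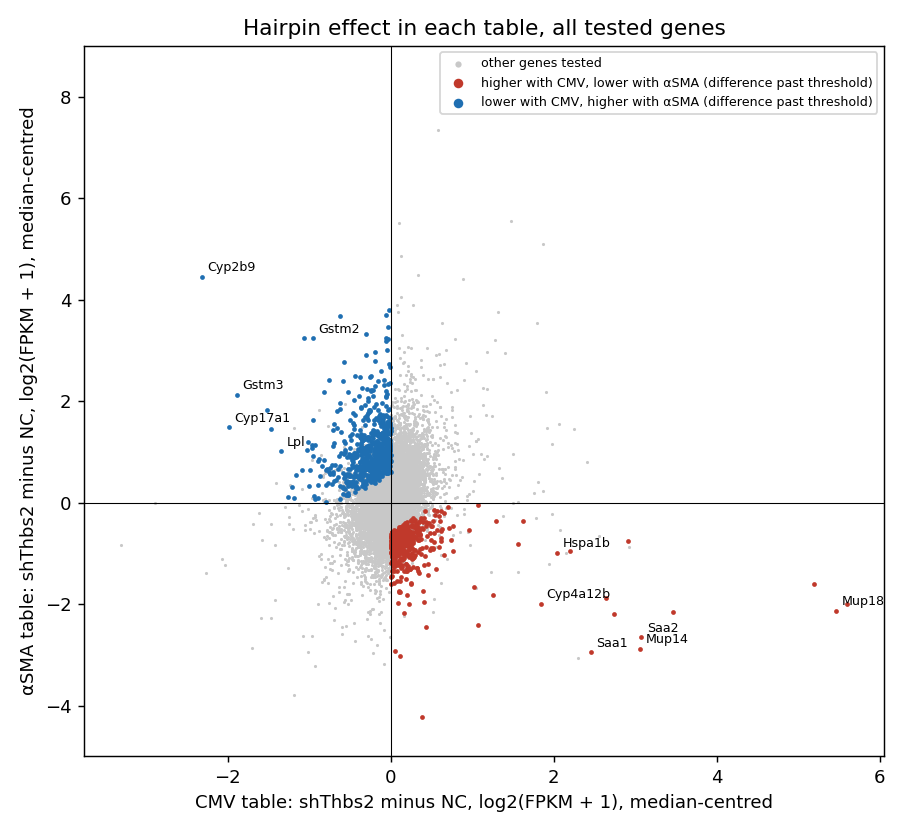
Hairpin effect in the CMV table (horizontal) against that in the αSMA table (vertical), both on the centred log2(FPKM + 1) scale, 1 point per tested gene. The 514 red points were higher with CMV and lower with αSMA and the 687 blue points the reverse, and the colour marks genes whose difference passed the threshold. Most coloured points lie close to 0 on the horizontal axis, and few genes, among them Saa1, Saa2, the Mup genes, Cyp2b9 and Gstm3, lie far from 0 on both.

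The groups of 2 libraries did not overlap for 42% of all genes in the CMV table and for 75.7% in the αSMA table. They were separate in both tables in opposite directions for 1119 genes (10.9%), of which 518 (5.06%) were higher with CMV and 601 (5.87%) lower with CMV, while 2149 genes (21%) were separated in the same direction. Separation in both tables together with a difference past the threshold was found for 615 genes (6%). Of these, 394 also had a group mean of 5 FPKM or more in each table. The 15 genes per direction with the largest effect on their weaker side, leaving out predicted models, were chosen, and 29 of these 30 are named throughout. All 29 kept opposite signs under every other setting in which they were tested. Robust empirical Bayes, sample weights and the replicate block left the effects unchanged, so no sign could change under these settings. The 29 also kept their signs without each library in turn, but the rule of separated groups fixed that in advance, so it supports nothing. The difference stayed past the threshold without each of the 8 libraries for 15 of the 29. The largest number of calls was lost without CMV shThbs2 replicate 1, where 13 of the 29 missed the threshold with adjusted p from 0.0530 to 0.0919.

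**Figure D2:**
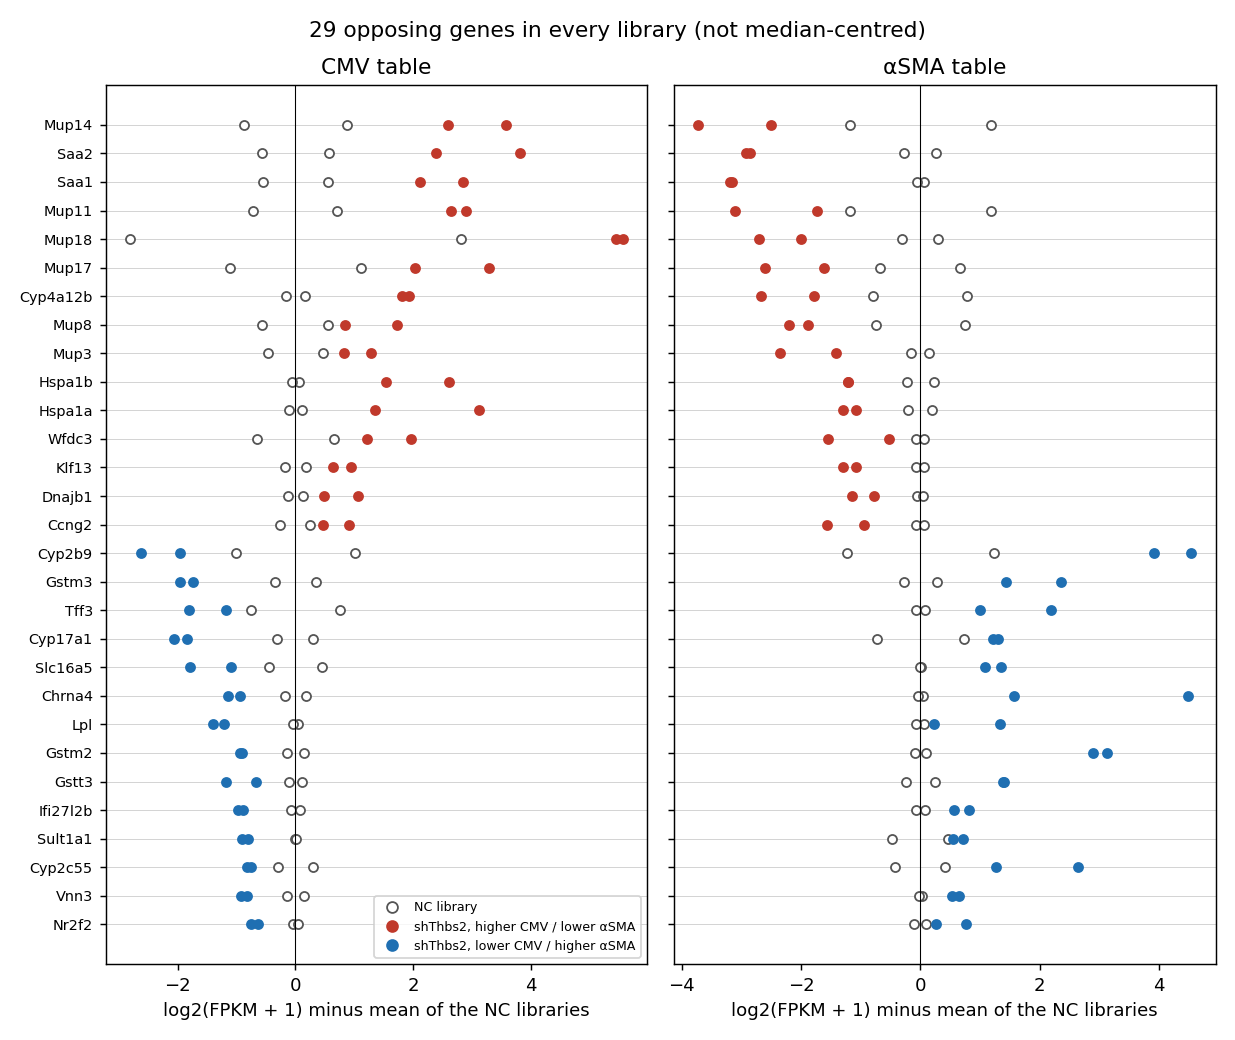
The 29 named genes in every library, as log2(FPKM + 1) minus the mean of the 2 controls of the same table, without median centring. Open circles are controls and filled circles hairpin libraries, with the CMV table on the left and the αSMA table on the right. Red genes lie to the right of 0 with CMV and to the left with αSMA, and blue genes the reverse; the 2 controls of several Mup genes lie more than 1 unit apart.

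Of the acute phase genes, Saa1 and Saa2 had the largest opposing effects. They encode the serum amyloid A proteins that hepatocytes secrete in inflammation. Saa1 measured 116 and 53.1 FPKM in the CMV controls and 345 and 572 with the CMV hairpin, against 739 and 684 FPKM in the αSMA controls and 78.6 and 76.9 with the αSMA hairpin. Saa2 measured 38.2 and 16.9 FPKM in the CMV controls and 139 and 373 with the CMV hairpin, against 290.5 and 199.6 FPKM in the αSMA controls and 32.5 and 31.1 with the αSMA hairpin. In both genes the CMV hairpin libraries and the αSMA controls were the high ones, and no groups overlapped within a table. The effects of Saa1 were 2.45 with CMV and -2.95 with αSMA, a difference of -5.41 ± 0.53 (SE; adjusted p = 0.00234). Those of Saa2 were 3.08 with CMV and -2.66 with αSMA, a difference of -5.73 ± 0.71 (SE; adjusted p = 0.00389). Both genes fell in the αSMA table (adjusted p = 0.000857 and 0.00419), while their CMV effects missed the threshold (adjusted p = 0.0963 and 0.11). The neighbours Saa3 and Saa4 did not oppose, with effects of -0.30 with CMV and -0.34 with αSMA for Saa3 and 0.79 with CMV and 0.82 with αSMA for Saa4.

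Saa1 (chr7:46740497-46742980, minus strand) and Saa2 (chr7:46751790-46754313, plus strand) lie next to each other, head to head, in build GRCm38. Their coding sequences are near copies, so the FPKM of each may hold reads of the other. Their promoters are shown because the pair moved together. In the RefSeq promoters (250 bases before to 50 after the start, GRCm38.p6), 287 of 300 bases of the pair align as identical and 12 as mismatches, and each has 1 base with no partner. The capitals mark the bases that differ, for Saa1 at chr7:46742931-46743230, minus strand and for Saa2 at chr7:46751583-46751882, plus strand, each read 5′ to 3′.
Saa1: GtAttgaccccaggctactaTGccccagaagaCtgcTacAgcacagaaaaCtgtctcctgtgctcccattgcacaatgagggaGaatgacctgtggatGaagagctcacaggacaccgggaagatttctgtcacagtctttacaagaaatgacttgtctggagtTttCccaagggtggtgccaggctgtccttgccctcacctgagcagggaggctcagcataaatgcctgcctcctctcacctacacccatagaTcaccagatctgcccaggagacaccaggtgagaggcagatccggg
Saa2: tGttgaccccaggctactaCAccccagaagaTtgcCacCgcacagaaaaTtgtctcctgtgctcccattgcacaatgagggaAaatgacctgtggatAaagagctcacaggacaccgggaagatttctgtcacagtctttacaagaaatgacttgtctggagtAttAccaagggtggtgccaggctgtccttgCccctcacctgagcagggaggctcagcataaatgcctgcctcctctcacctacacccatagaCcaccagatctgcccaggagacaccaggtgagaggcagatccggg

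Of the 26 acute phase genes tested, 14 were higher with CMV and lower with αSMA and 1 was the reverse, and 6 of the 14 passed the test of the difference. Of the others, 3 were higher in both tables and 8 lower in both. Without centring 12 passed in this direction, and under a common FPKM sum 14 did. The median effects were 0.19 with CMV and -0.60 with αSMA, beside 0.00 and 0.03 over all tested genes. The fibrinogen chains, the substrate of blood clots, were among the 6. Fga measured 1396 and 1201 FPKM in the CMV controls and 1616 and 1475 with the CMV hairpin, against 1533 and 2182 FPKM in the αSMA controls and 429 and 359 with the αSMA hairpin. Fga fell in the αSMA table (adjusted p = 0.000587), and its effects differed by -2.22 ± 0.32 (SE; adjusted p = 0.00598). Fgb had effects of 0.19 with CMV and -1.21 with αSMA and Fgg had effects of 0.17 with CMV and -1.35 with αSMA, with adjusted p of 0.0186 and 0.0178 for the difference. The CMV values of the 3 chains were small steps of 0.17 to 0.22. The metallothioneins Mt1 and Mt2, which bind zinc and copper, had opposite effects that did not differ past the threshold. Mt2 had effects of 1.05 with CMV and -1.68 with αSMA, a difference of -2.73 ± 0.92 (SE; adjusted p = 0.0668), and its 2 CMV controls were far apart at 262 and 54.1 FPKM. Without CMV control 2 the list's median CMV effect was -0.10, so the direction on the CMV side rested on that library. The number past the threshold was 3 without CMV shThbs2 replicate 1, 3 without CMV shThbs2 replicate 2 and 3 without αSMA control 4.

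Of 18 tested genes of the cytosolic heat shock response, 15 were higher with CMV and lower with αSMA, none was the reverse, and 9 passed the test of the difference. The median effects were 0.26 with CMV and -0.48 with αSMA. Between 13 and 16 of the genes opposed this way under every other setting that changed the effects and without each library. The number past the threshold was 5 without CMV shThbs2 replicate 1 and 4 without αSMA control 4. Under a common FPKM sum 15 passed. The inducible chaperone of the HSP70 family is encoded by Hspa1a and Hspa1b, near copies whose reads cannot be separated with certainty. Hspa1b measured 5.72 and 5.17 FPKM in the CMV controls and 38.2 and 17.7 with the CMV hairpin, against 29.7 and 41.2 FPKM in the αSMA controls and 14.5 and 14.6 with the αSMA hairpin. Hspa1a measured 0.603 and 0.375 FPKM in the CMV controls and 11.9 and 2.78 with the CMV hairpin, against 6.58 and 9.05 FPKM in the αSMA controls and 2.54 and 3.16 with the αSMA hairpin. The effects of Hspa1b differed by -3.03 ± 0.43 (SE; adjusted p = 0.00561) and those of Hspa1a by -3.17 ± 0.65 (SE; adjusted p = 0.0152). Hspa1b fell in the αSMA table (adjusted p = 0.0285), and Hspa1a, at -0.96, missed the threshold there (adjusted p = 0.118). The CMV hairpin replicate 1 held the higher value of the pair for both genes.

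Dnajb1, the HSP40 partner of that chaperone, moved the same way. Dnajb1 measured 7.58 and 6.22 FPKM in the CMV controls and 15.4 and 10.1 with the CMV hairpin, against 25.7 and 27.7 FPKM in the αSMA controls and 15.2 and 11.5 with the αSMA hairpin. The difference of effects of Dnajb1 was -1.48 ± 0.32 (SE; adjusted p = 0.0186). Hspa8, the constitutive member that is abundant in every cell, had effects of 0.56 with CMV and -0.54 with αSMA and a difference of -1.10 ± 0.25 (SE; adjusted p = 0.0191). Hspa8 measured 523 and 532 FPKM in the CMV controls and 892 and 711 with the CMV hairpin, against 1875 and 2090.4 FPKM in the αSMA controls and 1189 and 1137 with the αSMA hairpin. The groups of Hspa8 did not overlap in either table. The genes of this list that had the same sign in both tables were Hspb8, Cryab and Hspe1, all with values above 0. Hspe1, which encodes the small subunit of the mitochondrial chaperonin, had effects of 0.21 with CMV and 0.77 with αSMA.

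Heat shock factor 1, the activator of these genes in stress, binds arrays of the half-site GAA in alternating orientation. The motifs searched were GAANNTTC and TTCNNGAA, each of which reads the same on both strands and which may overlap. In RefSeq promoters of 300 bases, at least 1 match was found for 11 of the 14 tested heat shock genes with a promoter in the table (78.6%), for 6 of the 7 that opposed past the threshold (85.7%), and for 17% of 27025 genes. Among all opposing genes past the threshold, heat shock genes included, the share was 15.3% (62 of 406) of those higher with CMV and 15.6% (84 of 539) of those lower with CMV, beside 14.2% (1165 of 8184) of all tested genes. The list was made of genes of the heat shock response, so its high share was built into that choice and supports nothing about the opposition. A heat shock gene was counted when any of its promoter windows held a match. Hspd1 had 0 matches in its first window and 3 in another. Dnajb1 had no match in any window. A match is a description of letters and not a measured binding site. The promoters of Hspa1b (chr17:34959189-34959488, minus strand), Hspb1 (chr5:135887669-135887968, plus strand) and Hsph1 (chr5:149636287-149636586, minus strand) are shown for 1, 2 and 3 matches, which the capitals mark. Hspb1 and Hsph1 were picked for this after their values were seen.
Hspa1b: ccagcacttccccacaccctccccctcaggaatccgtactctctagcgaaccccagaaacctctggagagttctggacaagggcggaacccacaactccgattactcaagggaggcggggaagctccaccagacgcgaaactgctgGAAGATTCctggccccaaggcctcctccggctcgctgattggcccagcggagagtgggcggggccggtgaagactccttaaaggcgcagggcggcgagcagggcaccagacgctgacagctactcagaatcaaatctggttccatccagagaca
Hspb1: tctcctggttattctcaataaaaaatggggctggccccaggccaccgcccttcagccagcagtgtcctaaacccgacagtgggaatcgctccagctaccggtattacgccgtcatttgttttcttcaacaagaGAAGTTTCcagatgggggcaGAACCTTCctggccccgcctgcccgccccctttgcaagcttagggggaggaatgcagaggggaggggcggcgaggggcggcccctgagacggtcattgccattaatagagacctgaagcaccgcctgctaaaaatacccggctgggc
Hsph1: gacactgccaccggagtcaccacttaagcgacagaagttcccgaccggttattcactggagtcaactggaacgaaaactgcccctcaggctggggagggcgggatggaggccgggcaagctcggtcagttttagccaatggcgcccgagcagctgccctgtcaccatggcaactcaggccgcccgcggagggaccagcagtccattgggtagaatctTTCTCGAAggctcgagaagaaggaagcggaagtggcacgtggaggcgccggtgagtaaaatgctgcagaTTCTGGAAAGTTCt
The match of Hspa1b starts at position -104 from the gene start, and those of Hspb1 start at -117 and -97, counting the annotated first base of the gene as 0. The last 2 matches of Hsph1, at 36 and 41, overlap. The effects of Hspb1, a small heat shock protein, were 1.62 with CMV and -0.37 with αSMA, a difference of -1.99 ± 0.38 (SE; adjusted p = 0.0126). Those of Hsph1, which exchanges nucleotide on HSP70, were 0.72 with CMV and -0.50 with αSMA, a difference of -1.21 ± 0.20 (SE; adjusted p = 0.00821).

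**Figure D3:**
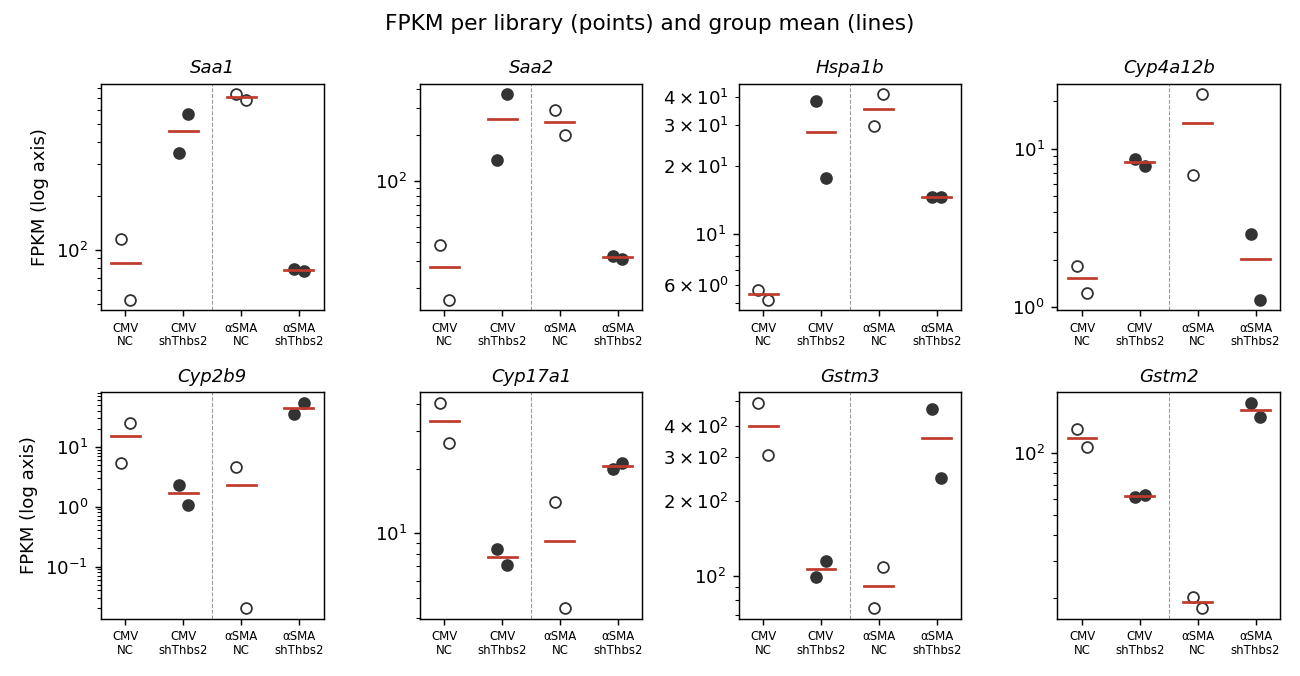
FPKM of 8 opposing genes in each library (open circles controls, filled circles hairpin) on log axes, with the group means as red lines and a dashed line between the separately normalised tables. Saa1, Saa2, Hspa1b and Cyp4a12b are high in the CMV hairpin and αSMA control libraries, and Cyp2b9, Cyp17a1, Gstm3 and Gstm2 in the CMV control and αSMA hairpin libraries.

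Genes with a sex-biased level in mouse liver were counted in 2 lists. Of 19 tested male-biased genes, 11 were higher with CMV and lower with αSMA and 1 was the reverse, with 6 of the 11 past the threshold. Of 11 tested female-biased genes, none was higher with CMV and lower with αSMA and 5 were the reverse, with 4 past the threshold, while 4 were lower in both tables and 2 higher in both. The median effects were 1.37 and -0.87 (CMV and αSMA) for the male-biased genes and -0.95 and 0.93 for the female-biased ones. All 8 livers expressed genes of the Y chromosome: Ddx3y measured 10.9 to 12.6 FPKM in the CMV libraries and 33.7 to 91.8 FPKM in the αSMA libraries. Xist, the transcript of the inactive X chromosome, measured 0 to 0.02 FPKM in the αSMA table and was not listed by that name in the CMV table. The male-biased count past the threshold was 1 with robust empirical Bayes and 10 under a common FPKM sum. The number of male-biased genes past the threshold was 3 without CMV control 2, 1 without CMV shThbs2 replicate 1, 2 without CMV shThbs2 replicate 2 and 2 without αSMA control 4. The number of female-biased genes past the threshold was 2 without CMV control 2 and 2 without CMV shThbs2 replicate 1.

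The largest effects among the male-biased genes came from the major urinary proteins, pheromone carriers that male liver makes in great amounts and that lie in 1 cluster on chromosome 4. Of 17 tested Mup genes, 15 were higher with CMV and lower with αSMA, and 9 passed the threshold. Most of these genes are near copies, so the split of reads between them is uncertain and the 17 are not independent of each other. Mup14 measured 35 and 9.72 FPKM in the CMV controls and 234 and 118 with the CMV hairpin, against 1292 and 6649 FPKM in the αSMA controls and 519.7 and 222 with the αSMA hairpin. Mup3 measured 1634 and 850.5 FPKM in the CMV controls and 2886 and 2083 with the CMV hairpin, against 5805 and 7150.1 FPKM in the αSMA controls and 2422 and 1257 with the αSMA hairpin. The CMV hairpin libraries of both genes lay above their controls and the αSMA hairpin libraries below theirs, although the 2 αSMA controls of Mup14 were several-fold apart. The effects of Mup14 were 3.06 with CMV and -2.88 with αSMA, a difference of -5.94 ± 1.20 (SE; adjusted p = 0.0147), and those of Mup3 differed by -2.68 ± 0.59 (SE; adjusted p = 0.0191). Mup8, Mup11, Mup17 and Mup18 were named by the same rule, with differences of -3.08, -4.93, -4.51 and -7.60. Mup18 and Mup17 were listed at 0 in CMV control 2, and neither fell past the threshold in the αSMA table alone (adjusted p = 0.248 and 0.0803). Mup11, Mup1, Mup15 and Mup12 also missed it there in limma (adjusted p = 0.0520, 0.0683, 0.105 and 0.336). Of the 9, only Mup14, Mup8 and Mup3 passed for the αSMA effect (adjusted p = 0.0243, 0.0245 and 0.0136). The CMV effects of the 9 all missed the threshold. Mup20 and Mup21 were above 0 in both tables, at 0.79 with CMV and 0.71 with αSMA for Mup20, which encodes the pheromone darcin. The number of Mup genes past the threshold was 1 without CMV shThbs2 replicate 1, 3 without CMV shThbs2 replicate 2, 3 without αSMA control 4, 5 without αSMA shThbs2 replicate 4 3 with robust empirical Bayes and 14 under a common FPKM sum, while 13 to 17 of the 17 kept the same opposition without any 1 library.

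Cyp4a12b, a male-biased cytochrome P450 that hydroxylates fatty acids, was steadier. Cyp4a12b measured 1.81 and 1.23 FPKM in the CMV controls and 8.60 and 7.80 with the CMV hairpin, against 6.78 and 22.1 FPKM in the αSMA controls and 2.91 and 1.12 with the αSMA hairpin. Its effects were 1.84 with CMV and -1.99 with αSMA, a difference of -3.84 ± 0.68 (SE; adjusted p = 0.0106) that stayed past the threshold without each library. It has a near copy, Cyp4a12a, whose effects were 1.23 with CMV and -1.36 with αSMA and did not differ past the threshold (adjusted p = 0.102).

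On the female-biased side Cyp2b9, a P450 of steroid and drug metabolism, had the largest difference of the named genes that were lower with CMV. Cyp2b9 measured 5.38 and 24.9 FPKM in the CMV controls and 2.32 and 1.08 with the CMV hairpin, against 4.62 and 0.02 FPKM in the αSMA controls and 35.2 and 54.5 with the αSMA hairpin. The controls of each table differed widely, and αSMA control 4 was close to 0. The effects of Cyp2b9 were -2.32 with CMV and 4.45 with αSMA, a difference of 6.77 ± 1.14 (SE; adjusted p = 0.00902). Cyp17a1, which makes precursors of sex steroids, followed. Cyp17a1 measured 40.7 and 26.3 FPKM in the CMV controls and 8.43 and 7.06 with the CMV hairpin, against 13.9 and 4.45 FPKM in the αSMA controls and 20.0 and 21.3 with the αSMA hairpin. Its effects differed by 3.47 ± 0.59 (SE; adjusted p = 0.00927), and it rose in the αSMA table (adjusted p = 0.0202). Prom1, a membrane protein of progenitor cells, had effects of -1.16 with CMV and 0.54 with αSMA, a difference of 1.71 ± 0.39 (SE; adjusted p = 0.021). Cyp4a14 had effects of -0.86 with CMV and 0.93 with αSMA and a wide SE of 1.55 on their difference (adjusted p = 0.429).

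The mu class glutathione transferases, which join glutathione to reactive compounds, had effects in the other direction. All 7 tested Gstm genes were below 0 with CMV and above 0 with αSMA, and 6 of the 7 passed the threshold for the difference, the exception being Gstm1. No CMV effect of the 7 passed, and those of Gstm6, Gstm5 and Gstm4 were near 0, at -0.05, -0.17 and -0.20, with αSMA effects of 1.02, 1.06 and 2.97. The CMV groups of Gstm6 overlapped. Gstm2 gave the smallest adjusted p of the 29 named genes. Gstm2 measured 129.9 and 106 FPKM in the CMV controls and 60.9 and 62.4 with the CMV hairpin, against 20.3 and 17.8 FPKM in the αSMA controls and 174 and 148 with the αSMA hairpin. Gstm3 measured 494 and 304 FPKM in the CMV controls and 99 and 115 with the CMV hairpin, against 74.2 and 109 FPKM in the αSMA controls and 467 and 246 with the αSMA hairpin. Both genes were high in the CMV controls and in the αSMA hairpin libraries, with no overlap of groups. The effects of Gstm2 were -0.95 with CMV and 3.24 with αSMA, a difference of 4.19 ± 0.26 (SE; adjusted p = 0.000575), and those of Gstm3 were -1.88 with CMV and 2.13 with αSMA, a difference of 4.01 ± 0.54 (SE; adjusted p = 0.00485). Gstm2 and Gstm3 rose in the αSMA table (adjusted p = 7.09e-05 and 0.00315). The 6 genes lie within chr3:107895821-108044894 (GRCm38), a span that holds 7 tested genes, and as near copies they share reads to an unknown degree. Under a common FPKM sum 6 of the 7 opposed and 5 passed. Without any 1 library 6 or 7 opposed, and between 5 and 7 passed.

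Gstt3, a theta class transferase on chromosome 10, followed the mu class. Gstt3 measured 45 and 38.6 FPKM in the CMV controls and 17.9 and 25.9 with the CMV hairpin, against 8.05 and 5.47 FPKM in the αSMA controls and 19.3 and 18.9 with the αSMA hairpin. The difference of effects of Gstt3 was 2.57 ± 0.33 (SE; adjusted p = 0.00413). Among other enzymes of conjugation, Sult1a1 adds sulfate to phenols. Sult1a1 measured 281 and 283 FPKM in the CMV controls and 151 and 161 with the CMV hairpin, against 206 and 107 FPKM in the αSMA controls and 219 and 244 with the αSMA hairpin. Its αSMA controls were uneven, and its effects differed by 1.74 ± 0.38 (SE; adjusted p = 0.0187). Cyp2c55, a P450 that rises with activators of the xenobiotic receptors, had effects of -0.82 with CMV and 2.18 with αSMA, a difference of 3.01 ± 0.67 (SE; adjusted p = 0.0192). Of 25 tested genes of xenobiotic metabolism, 10 were lower with CMV and higher with αSMA, 6 of them past the threshold, and 3 were the reverse, 2 of them past it. The 6 include Gstm2, Gstm3 and Cyp2c55. The median αSMA effect of the list was 0.51, and -0.02 under a common FPKM sum. The number of those lower with CMV past the threshold was 3 without CMV shThbs2 replicate 1 and 10 without αSMA shThbs2 replicate 4.

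Of 20 tested genes of fatty acid synthesis, 15 were lower with CMV and higher with αSMA, none was the reverse, and 6 passed the test of the difference. No CMV effect of the 20 passed on its own. The median effects were -0.21 with CMV and 0.91 with αSMA. Elovl6, which elongates saturated fatty acids, is an example. Elovl6 measured 12.2 and 16.5 FPKM in the CMV controls and 7.33 and 11.8 with the CMV hairpin, against 3.05 and 4.45 FPKM in the αSMA controls and 32.8 and 12.1 with the αSMA hairpin. Its effects differed by 2.98 ± 0.62 (SE; adjusted p = 0.0162), and it rose in the αSMA table (adjusted p = 0.00369). Pnpla3, a lipase on lipid droplets, had effects of -1.02 with CMV and 1.19 with αSMA and a difference of 2.20 ± 0.67 (SE; adjusted p = 0.049). Its αSMA side came from 1 library, with 3.81 and 0.49 FPKM in hairpin replicates 3 and 4. Fasn, the fatty acid synthase, had effects of -0.57 with CMV and 1.95 with αSMA and missed the threshold (adjusted p = 0.056), as did Acly, which makes cytosolic acetyl-CoA, at -0.49 with CMV and 0.61 with αSMA (adjusted p = 0.0978). The αSMA side of Fasn rested mainly on hairpin replicate 3. Fasn measured 17.41 and 26.76 FPKM in the αSMA controls and 143.32 and 37.65 in hairpin replicates 3 and 4. Under a common FPKM sum 8 of the 20 opposed, and without median centring 10 did. The number past the threshold was 3 without CMV control 1, 2 without CMV shThbs2 replicate 1, 3 without CMV shThbs2 replicate 2, 3 without αSMA control 3, 3 without αSMA control 4 and 14 without αSMA shThbs2 replicate 4.

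Of 24 tested genes of cholesterol synthesis and uptake, 15 were lower with CMV and higher with αSMA, none the reverse, and 6 passed. The median effects were -0.34 with CMV and 0.57 with αSMA. Dhcr7 encodes the enzyme of the last step of cholesterol synthesis. Dhcr7 measured 64.6 and 79.7 FPKM in the CMV controls and 33.4 and 34.5 with the CMV hairpin, against 8.26 and 15.5 FPKM in the αSMA controls and 20.9 and 11.3 with the αSMA hairpin. Its effects differed by 1.72 ± 0.48 (SE; adjusted p = 0.0374), while its αSMA groups overlapped and the αSMA effect alone missed the threshold (adjusted p = 0.155). Mvk, mevalonate kinase, had effects of -0.51 with CMV and 0.55 with αSMA, a difference of 1.06 ± 0.26 (SE; adjusted p = 0.0248). Lss and Fdps, 2 further enzymes of the pathway, had effects of -0.61 with CMV and 0.65 with αSMA and of -0.47 with CMV and 0.73 with αSMA, and neither difference passed (adjusted p = 0.0579 and 0.0679). The median αSMA effect of the list was 0.08 under a common FPKM sum, where 3 passed. The number past the threshold was 3 without CMV control 2, 1 without CMV shThbs2 replicate 1, 2 without CMV shThbs2 replicate 2, 1 without αSMA control 3 and 3 without αSMA shThbs2 replicate 3.

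Lpl, the lipase that releases fatty acids from circulating lipoproteins, is low in healthy adult hepatocytes. Lpl measured 60.5 and 56.9 FPKM in the CMV controls and 24.7 and 21.6 with the CMV hairpin, against 52.2 and 47.5 FPKM in the αSMA controls and 58.6 and 127 with the αSMA hairpin. The αSMA hairpin replicate 4 was well above replicate 3, and no groups overlapped. The effects of Lpl were -1.34 with CMV and 1.01 with αSMA, a difference of 2.35 ± 0.38 (SE; adjusted p = 0.00821), which stayed past the threshold without each library in turn. Slc16a5, a monocarboxylate transporter, showed effects of nearly equal size. Slc16a5 measured 14.1 and 27 FPKM in the CMV controls and 4.97 and 8.60 with the CMV hairpin, against 3.05 and 3.02 FPKM in the αSMA controls and 7.61 and 9.27 with the αSMA hairpin. The effects were -1.47 with CMV and 1.45 with αSMA, a difference of 2.92 ± 0.41 (SE; adjusted p = 0.0055). Vnn3, a pantetheinase of coenzyme A turnover, had effects of -0.89 with CMV and 0.82 with αSMA, a difference of 1.72 ± 0.20 (SE; adjusted p = 0.00338).

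In sugar metabolism the opposition lay almost wholly on the αSMA side. Of 19 tested genes of gluconeogenesis and glycolysis, 7 were lower with CMV and higher with αSMA, 6 of them past the threshold. Another 1 was the reverse and past it. Opposite signs in 8 of 19 were close to the share over all tested genes, 41.7%. Past the threshold, 11.7% of all tested genes opposed. The median effects were 0.00 with CMV and 1.32 with αSMA. Pfkfb1 measured 26.3 and 33.1 FPKM in the CMV controls and 27.5 and 23.5 with the CMV hairpin, against 4.22 and 4.15 FPKM in the αSMA controls and 21.3 and 17.8 with the αSMA hairpin. Pfkfb1, the liver enzyme that sets the level of fructose 2,6-bisphosphate, rose in the αSMA table (adjusted p = 0.000152), and its effects differed by 2.45 ± 0.24 (SE; adjusted p = 0.00234). Its CMV groups overlapped. Gys2, liver glycogen synthase, had effects of -0.24 with CMV and 2.21 with αSMA, and Pklr, liver pyruvate kinase, had effects of -0.32 with CMV and 1.32 with αSMA with a difference that missed the threshold (adjusted p = 0.0516). For both, αSMA hairpin replicate 3 was well above replicate 4. Gys2 measured 12.59 and 5.89 FPKM in the αSMA controls and 55.55 and 25.02 with the αSMA hairpin. Pklr measured 23.82 and 22.93 FPKM in the αSMA controls and 77.55 and 33.47 with the αSMA hairpin. The number past the threshold was 3 without CMV shThbs2 replicate 1 and 3 without CMV shThbs2 replicate 2. The gene that went the other way was Ppargc1a, a coactivator of mitochondrial and gluconeogenic genes. Ppargc1a measured 1.02 and 1.14 FPKM in the CMV controls and 2.08 and 1.28 with the CMV hairpin, against 3.41 and 4.59 FPKM in the αSMA controls and 0.67 and 0.81 with the αSMA hairpin. It fell in the αSMA table (adjusted p = 0.000986), and its effects differed by -1.61 ± 0.24 (SE; adjusted p = 0.00669).

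The remaining genes named in the direction of higher with CMV were Klf13, Ccng2 and Wfdc3. Klf13, a zinc finger transcription factor, was the steadiest. Klf13 measured 4.23 and 3.10 FPKM in the CMV controls and 6.20 and 7.89 with the CMV hairpin, against 9.90 and 11 FPKM in the αSMA controls and 3.66 and 4.44 with the αSMA hairpin. Its effects differed by -1.71 ± 0.25 (SE; adjusted p = 0.00625), and it stayed past the threshold without each library. Ccng2, an atypical cyclin linked to growth arrest, had effects of 0.66 with CMV and -1.03 with αSMA, a difference of -1.69 ± 0.34 (SE; adjusted p = 0.0147). Wfdc3, of the whey acidic protein family, had effects of 1.56 with CMV and -0.81 with αSMA, a difference of -2.37 ± 0.60 (SE; adjusted p = 0.0288) that held without only 2 of the 8 libraries. In the integrated stress response, 9 of 23 tested genes were higher with CMV and lower with αSMA, 3 of them past the threshold. Without centring 14 opposed this way and 6 passed, and under a common FPKM sum 14 opposed and 10 passed. With quantile normalization 5 passed. The number past the threshold was 5 without CMV control 2 and 5 without αSMA shThbs2 replicate 4. Chac1, which degrades glutathione, had the largest of these. Chac1 measured 0.709 and 0.273 FPKM in the CMV controls and 4.40 and 0.868 with the CMV hairpin, against 13.7 and 19.1 FPKM in the αSMA controls and 1.32 and 2.27 with the αSMA hairpin. The CMV side rested on hairpin replicate 1, and the effects were 1.08 with CMV and -2.41 with αSMA, a difference of -3.49 ± 0.60 (SE; adjusted p = 0.0097). Sars, a tRNA synthetase, and Mthfd2, of mitochondrial folate metabolism, were the other 2, with differences of -1.27 and -1.83.

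The remaining named genes that were lower with CMV were Ifi27l2b, Nr2f2, Tff3 and Chrna4. Ifi27l2b, of a family induced by interferon, had tight groups. Ifi27l2b measured 60.2 and 67.6 FPKM in the CMV controls and 34.1 and 32 with the CMV hairpin, against 25.9 and 23.3 FPKM in the αSMA controls and 44.2 and 36.8 with the αSMA hairpin. The difference of effects of Ifi27l2b was 1.88 ± 0.23 (SE; adjusted p = 0.00359). Nr2f2, the nuclear receptor COUP-TFII of veins and mesenchyme, had effects of -0.72 with CMV and 0.74 with αSMA, a difference of 1.45 ± 0.22 (SE; adjusted p = 0.00625). Nr2f2 measured 6.72 and 7.24 FPKM in the CMV controls and 3.75 and 4.15 with the CMV hairpin, against 11.8 and 13.8 FPKM in the αSMA controls and 15.5 and 22.3 with the αSMA hairpin. Tff3, a trefoil peptide of mucosal repair, and Chrna4, a subunit of the nicotinic acetylcholine receptor, were less steady. Tff3 had effects of -1.52 with CMV and 1.83 with αSMA, a difference of 3.35 ± 0.78 (SE; adjusted p = 0.022) that held without only 3 of the 8 libraries. Chrna4 measured 6.02 and 8.06 FPKM in the CMV controls and 3.16 and 2.62 with the CMV hairpin, against 0.12 and 0.06 FPKM in the αSMA controls and 23.5 and 2.22 with the αSMA hairpin. Its αSMA side rested mainly on hairpin replicate 3, and the difference of 4.32 ± 1.09 (SE; adjusted p = 0.0281) held without only 2 of the 8 libraries.

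Over all tested genes, 21.4% were lower with CMV and higher with αSMA, and 6.71% were so past the threshold. Of 24 tested collagens and matrix proteins, 17 were below 0 in both tables. Another 5 were lower with CMV and higher with αSMA, and 1 of the 5 passed. That gene was Postn, periostin, a matrix protein of activated fibroblasts. Postn measured 5.34 and 4.91 FPKM in the CMV controls and 2.69 and 3.33 with the CMV hairpin, against 6.06 and 5.58 FPKM in the αSMA controls and 6.98 and 9.64 with the αSMA hairpin. It rose in the αSMA table (adjusted p = 0.01), and its effects differed by 1.31 ± 0.22 (SE; adjusted p = 0.00903). Of 16 tested stellate cell markers, 6 were lower with CMV and higher with αSMA, 3 of them past the threshold, and 1 was the reverse. The number of stellate markers past the threshold was 1 without CMV control 2, 1 without CMV shThbs2 replicate 1, 1 without CMV shThbs2 replicate 2, 1 without αSMA control 3, 1 without αSMA control 4 and 1 without αSMA shThbs2 replicate 4. It was also 1 without a filter, at a mean of at least 5 FPKM, without centring, under a common FPKM sum and with quantile normalization. Without centring and under a common FPKM sum, 1 marker also passed in the other direction. The list's median αSMA effect was 0.19 as reported, -0.03 without centring and -0.33 under a common sum. Reln, a secreted glycoprotein of stellate cells, had effects of -0.90 with CMV and 0.34 with αSMA, a difference of 1.23 ± 0.36 (SE; adjusted p = 0.0437). Its αSMA groups overlapped, and the αSMA effect alone missed the threshold (adjusted p = 0.302). The summed stellate markers were 256 to 266 FPKM in the CMV controls and 226 to 250.4 with the CMV hairpin, against 421 and 452 FPKM in the αSMA controls and 426 and 564 with the αSMA hairpin. Of 14 tested contractile genes, 3 opposed and 2 passed. These were Myl9, a myosin light chain, at -0.71 with CMV and 0.36 with αSMA, and Lgals1, a lectin, at -0.79 with CMV and 0.34 with αSMA. Neither αSMA effect passed alone (adjusted p = 0.168 and 0.238), and the αSMA groups of Lgals1 overlapped. No contractile gene that opposed passed without CMV control 1, CMV shThbs2 replicate 1 or 2, αSMA control 3 or 4, or αSMA shThbs2 replicate 3, and 1 passed without CMV control 2. The number was 1 without centring, with quantile normalization, at a mean of at least 5 FPKM and with a replicate block, and under a common FPKM sum none passed and 1 opposed, in the other direction.

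Of 20 tested genes of antigen presentation, 13 were lower with CMV and higher with αSMA, and no difference passed in limma (1 did at an unadjusted p under 0.05), while 11.7% of all tested genes opposed past the threshold. Their median αSMA effect turned to -0.14 under a common FPKM sum, and their median CMV effect turned to 0.15 without CMV control 1, where 1 opposed this way. Without CMV control 2 the number of differences past the threshold in this direction was 6, and without αSMA shThbs2 replicate 4 it was 2. Of 79 tested cytosolic ribosomal proteins, 70 were above 0 in both tables, and of the 9 that opposed none passed (3 did at an unadjusted p under 0.05). Under a common FPKM sum 45 of the 79 were higher with CMV and lower with αSMA and 10 passed, and 3 passed without centring or without αSMA shThbs2 replicate 4. Of 70 tested nuclear genes of the respiratory chain, 56 were above 0 in both tables, 13 opposed, and 3 of these passed, all lower with CMV and higher with αSMA. The number of these genes in that direction past the threshold was 1 without CMV control 1, 6 without CMV control 2, 1 without CMV shThbs2 replicate 1, 1 without CMV shThbs2 replicate 2, 1 without αSMA control 4, 1 without αSMA shThbs2 replicate 3 and 8 without αSMA shThbs2 replicate 4. It was 1 under a common FPKM sum, where 2 passed in the other direction, and 5 with a replicate block. Of 16 tested cell cycle genes, 7 were lower with CMV and higher with αSMA and 4 passed. The cell cycle list held 24 genes, and Mki67, Top2a, Ccnb1 and Plk1 were among those under the filter. Rrm2, a subunit of ribonucleotide reductase, which makes building blocks of DNA, had effects of -0.48 with CMV and 1.24 with αSMA, a difference of 1.72 ± 0.22 (SE; adjusted p = 0.00398). Birc5, survivin, had effects of -0.33 with CMV and 0.96 with αSMA, a difference of 1.29 ± 0.29 (SE; adjusted p = 0.0193). Birc5 was low in the αSMA table, at 0.64 and 0.68 FPKM in the controls and 1.93 and 1.62 with the hairpin. The CMV groups of Birc5 overlapped. The number of cell cycle genes past the threshold was 2 without CMV shThbs2 replicate 1, 2 without CMV shThbs2 replicate 2, 2 without αSMA control 3, 2 without αSMA control 4 and 2 without αSMA shThbs2 replicate 3. At a mean of at least 5 FPKM, 3 were tested and none passed in this direction, while 1 passed in the other.

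**Figure D4:**
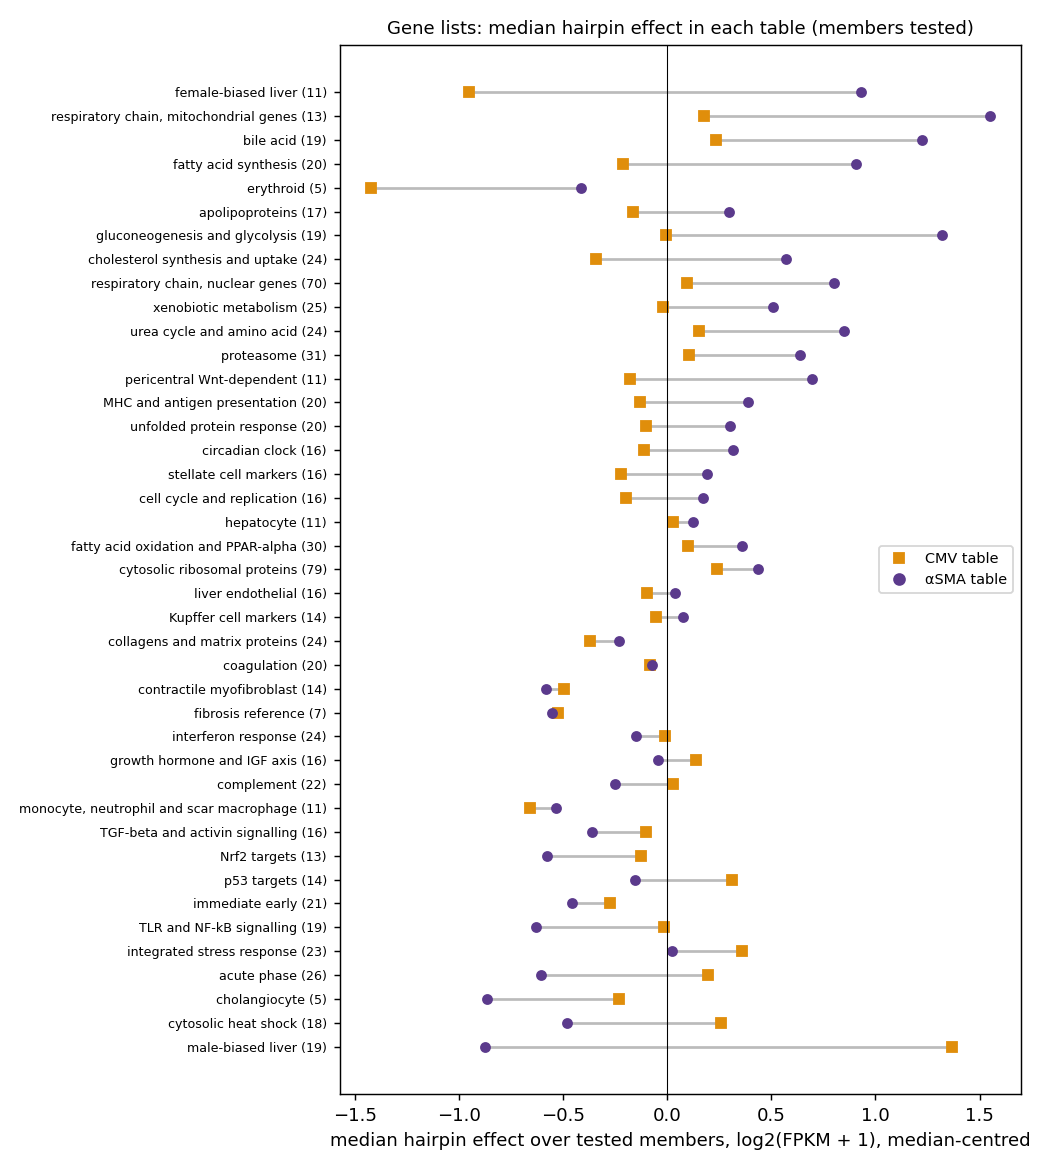
Median hairpin effect over the tested members of each gene list, in the CMV table (squares) and the αSMA table (circles), on the centred log2(FPKM + 1) scale, with the number of tested members in brackets. The lists are ordered by the median difference of effects; the heat shock, acute phase and male-biased lists at the bottom lie right of 0 with CMV and left of 0 with αSMA, and the female-biased, fatty acid synthesis and cholesterol lists show the reverse.

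The opposing genes were not set apart by level or biotype. The median of their mean was 7.35 FPKM in the CMV table and 11.6 FPKM in the αSMA table, beside 7.22 and 11.8 FPKM over all tested genes, and 1199 of the 1201 were protein coding, as were 10237 of the 10245. Apart from chromosome Y, their share of the tested genes per chromosome ran from 8.82% (chromosome 12) to 15.4% (chromosome 3). Runs of at least 4 genes of the same direction within 250000 bases of the next included the Gstm genes, 4 Mup genes at chr4:61300023-61674136 among 5 tested there, and 5 genes around Cyp17a1 at chr19:46531096-46741099 among 6 tested there. The last run holds Arl3, Sfxn2, Borcs7 and As3mt beside Cyp17a1, of which As3mt encodes the methyltransferase of arsenic. Across all tested genes the effects of the 2 tables correlated weakly, with Pearson's r of 0.15 and Spearman's rho of 0.23 over 10245 genes that share libraries.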

How the data were processed

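The processing concerns poly(A)-selected liver RNA in 4 groups of 2 libraries. The values are FPKM, deposited by the authors in 1 table per vector, and no counts were used. Cufflinks, HISAT, Bowtie2 2.3.5, HISAT2 2.1.0 and build GRCm38 are named per the submitters' processing notes, and what tool lies behind which table is not given in these sources. Both tables were joined on the Ensembl identifier without version (17593 in both, all found in GENCODE M21), and genes with a mean of at least 1 FPKM in each table were kept. log2(FPKM + 1) was centred on each library's median, so fold changes of low genes are understated. limma 3.58.1 in R 4.3.3 fitted 1 mean per group over all 8 libraries, without a block, with empirical Bayes and trend, two-sided, on 4 residual degrees of freedom. Benjamini-Hochberg adjustment covered all 10245 genes, with a threshold of 0.05. The script was tested on simulated data. Promoters are from RefSeq, GRCm38.p6. Every per-sample column was used.

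The genes, the 43 lists and the tests were chosen with earlier results of these data known. Thbs2, 8 fibrosis genes, the 15 opposing genes per direction described in the text and, in each list, up to 4 opposing members with the largest weaker effect were to be named, and 1 of these genes is not reported here. Others are named as an exception to a count, as a near copy or neighbour of a named gene, or for a promoter, after their values were seen. Lists were described by counts and medians, with no test. Alternatives tried were no filter, a filter at 5 FPKM, a pseudocount of 0.1, no centring, a common FPKM sum, quantile normalization, robust empirical Bayes, sample weights, a replicate block, and each of 8 libraries left out, where the single library left in a group is taken to vary like the other groups.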

Additional observations from a re-analysis of the deposited data

Results flagged for a closer look

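The hairpin effect of all 29 named genes differed between the vectors past the threshold of the limma test, with the groups of both tables separated. Both properties were part of the rule that chose these genes, so the values are a description and support nothing. The values are the αSMA effect minus the CMV effect on the centred log2 scale. Among genes lower with αSMA, the difference was -5.94 for Mup14, -5.73 for Saa2, -5.41 for Saa1, -4.93 for Mup11, -7.60 for Mup18, -4.51 for Mup17, -3.84 for Cyp4a12b and -3.08 for Mup8. It was -2.68 for Mup3, -3.03 for Hspa1b, -3.17 for Hspa1a, -2.37 for Wfdc3, -1.71 for Klf13, -1.48 for Dnajb1 and -1.69 for Ccng2. Among genes higher with αSMA, it was 6.77 for Cyp2b9, 4.01 for Gstm3, 3.35 for Tff3, 3.47 for Cyp17a1, 2.92 for Slc16a5, 4.32 for Chrna4, 2.35 for Lpl and 4.19 for Gstm2. It was 2.57 for Gstt3, 1.88 for Ifi27l2b, 1.74 for Sult1a1, 3.01 for Cyp2c55, 1.72 for Vnn3 and 1.45 for Nr2f2. Platform, provider and control mice cannot be told apart from the vector in any of these values. No group had enough libraries for a test of outlying values.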

How the results depend on the processing

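The counts moved most with scaling and with single libraries, and the cause was not tested. The 2189 genes that differed became 3897 under a common FPKM sum, and between 656 and 2531 without 1 library, with 1340 without CMV control 1, 968 and 656 without CMV shThbs2 replicates 1 and 2, 1200 and 709 without αSMA controls 3 and 4, and 1438 without αSMA shThbs2 replicate 3. The median αSMA effect of all genes was 0.03 as reported, 0.18 without a filter, -0.20 without centring and -0.46 under a common FPKM sum, and 57.8% of the calls lay above 0 as reported, 66.3% without a filter, 30.7% without centring and 13.4% under a common sum. Genes higher with CMV and lower with αSMA numbered 1151 without centring and 1879 under a common sum, and 126 to 532 without 1 library. The reverse numbered 1057 without a filter, 412 at a mean of at least 5 FPKM (fewer genes tested), 399 without centring and 299 under a common sum, and 270 to 827 without 1 library. Of the 1201 opposing genes, 1123 kept their signs under a common sum and 1128 without centring. The share of all genes with opposite signs was 44.3% without a filter, 40.3% at 5 FPKM, 44.2% without centring, 44.8% under a common sum, 43.5% with quantile normalization, and 40.2% to 46.3% without 1 library. Genes opposing past an adjusted p of 0.05 in both tables numbered 0 to 3 without 1 library, and were Cyp1a1, Saa1 and Mup18 without CMV control 1, Mmd2 without CMV control 2, Hspa1a and Hspa1b without CMV shThbs2 replicate 2, Mup15 without αSMA control 3, and Lpl without αSMA shThbs2 replicate 3 or 4.

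The difference for Thbs2 turned to -0.094 under a common sum (adjusted p from 0.0993 to 0.856 over its alternatives). Differences of fibrosis genes that never passed also changed sign: under a common sum Col3a1 was -0.36, Des -0.18 and Acta2 -0.17, Col3a1 was -0.10 without centring, and without 1 library Col1a1 ranged from -0.60 to 0.25, Pdgfrb from -0.27 to 0.10, Col3a1 from -0.19 to 0.50 and Col1a2 from -0.40 to 0.34. Of 603 alternative values for single genes, 528 kept direction and side of the threshold and 64 no longer passed. Among the 29 named genes, calls were lost for 4 without CMV control 1, 3 without CMV control 2, 13 and 10 without CMV shThbs2 replicates 1 and 2, 5 and 11 without αSMA controls 3 and 4, and 3 without each αSMA hairpin replicate, with adjusted p between 0.0509 and 0.0985. Other settings ended the call of Mup11, Mup17, Mup18, Mup8, Tff3, Chrna4 and Wfdc3 at least once.

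Groups of a table share replicate numbers in the labels, but the deviations of same-numbered libraries correlated at 0.06 with CMV and 0.0017 with αSMA, so the numbers were not taken as pairs. A replicate block gave 1864 genes that differed, 1012 of them opposing.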

Other observations

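Over all tested genes, 41.7% opposed and 11.7% opposed past the threshold, and the lists below are to be read beside these shares. In the circadian list, 9 of 16 tested genes opposed and 1 of the 9 passed, lower with CMV and higher with αSMA. In that direction 3 passed without CMV control 2 or with a replicate block and 5 without αSMA shThbs2 replicate 4. Dbp, a clock output gene of the liver, had effects of -0.88 with CMV and 1.82 with αSMA, and the difference missed the threshold (2.70 ± 0.98 (SE; adjusted p = 0.0823)). The αSMA side of Dbp rested mainly on hairpin replicate 3. Dbp measured 2.21 and 2.95 FPKM in the αSMA controls and 24.31 and 3.58 in hairpin replicates 3 and 4. In the growth hormone and IGF list, 8 of 16 opposed and 1 passed, Esr1, the oestrogen receptor of hepatocytes, at -0.23 with CMV and 0.84 with αSMA, a difference of 1.06 ± 0.20 (SE; adjusted p = 0.0126). Under a common FPKM sum 6 genes of that list passed as higher with CMV and lower with αSMA. Cish, a feedback inhibitor downstream of the growth hormone receptor, had effects of 0.19 with CMV and -1.32 with αSMA (adjusted p = 0.353 for the difference). Lect2, a secreted protein of the pericentral list, had effects of -0.56 with CMV and 1.03 with αSMA, a difference of 1.59 ± 0.28 (SE; adjusted p = 0.00979). In the list of p53 targets, 6 of 14 were higher with CMV and lower with αSMA and none of the list passed in limma (3 at an unadjusted p under 0.05), while 3 passed in that direction without centring and 5 under a common FPKM sum. Cdkn1a, the cell cycle inhibitor p21, had effects of 0.98 with CMV and -0.84 with αSMA (adjusted p = 0.0503).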
